A study of Mus musculus and Homo sapiens with 9 samples.

Results

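The genes described here are the 10 that cut, process and rejoin DNA at antigen receptor genes: RAG1, RAG2, DNTT, XRCC5, XRCC6, PRKDC, DCLRE1C, XRCC4, LIG4 and NHEJ1. They were chosen by symbol, as the rows of 2 gene count tables that carry these names in human or mouse spelling. All 10 were found among 56105 annotated genes of the human table and all 10 among 42462 of the mouse table. After low counts were filtered, 10 of 10 were tested in the human cells and 9 of 10 in the mouse cells, the exception being Rag2, which had no count in any mouse library.

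RNA-seq was done in 2 systems in which the transcriptional coregulator IRF2BP2 was reduced or removed. The human system was J.gamma1, a Jurkat-derived T-cell acute lymphoblastic leukaemia (T-ALL) line, with 2 libraries of a control hairpin (sh-NC) and 2 of a hairpin against IRF2BP2 (sh-IRF2BP2). The mouse system was CD3+ T cells taken from the spleen by magnetic sorting, with 3 libraries of wild type controls and 2 of Irf2bp2 KO animals. According to the methods, the knockout animals were Vav-iCre+/-;Irf2bp2fl/fl, so that a recombinase driven by the Vav promoter deletes the gene throughout blood cells from early progenitors on, and the controls were Vav-iCre-/-;Irf2bp2fl/fl animals, which carry the same floxed alleles without the recombinase. Mice of this cross were killed at 6 weeks of age. J.gamma1 is a single cell line, and which hairpin sequence was used in the sequenced cells, the day of harvest and whether animals were pooled are not given in the sources used here. The labels do not say that replicates came from separate cultures or animals, so p-values measure the spread between these libraries, which may be technical.

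V(D)J recombination assembles the variable part of T cell receptor and immunoglobulin genes from separate segments during lymphocyte development. The RAG1 and RAG2 proteins form the endonuclease that cuts beside the segments, and both genes are normally active only in developing lymphocytes. The ends are then opened, held and ligated by the non-homologous end-joining machinery that every dividing or resting cell uses for broken DNA, while terminal deoxynucleotidyl transferase, the product of DNTT, adds untemplated bases in developing lymphocytes. In mature peripheral T cells RAG activity is switched off, and T-ALL cells often keep the programme of the thymocyte stage at which they were arrested.

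The library totals ranged from 26648204 to 31120236 counts in J.gamma1 cells and from 16668577 to 37177523 in mouse T cells, the lowest being control replicate 3. Levels are given as CPM, the counts per 1000000 counts of a library after TMM scaling, and 3 counts, the limit that a count of 0 allows, correspond to 0.0967 to 0.116 CPM in the human and 0.0783 to 0.188 CPM in the mouse libraries (counting error only). IRF2BP2 itself stood at 204 and 199 CPM with sh-NC and at 79 and 93.8 CPM with sh-IRF2BP2, and Irf2bp2 at 112, 127 and 120 CPM in control and at 0 in both knockout libraries. The 10 T-cell markers summed to 1750 to 1960 CPM in sh-NC and to 3950 to 4760 CPM in mouse control libraries. CD3E averaged 442 CPM in sh-NC and Cd3e 391 CPM in control cells. The markers were uneven in sh-NC cells, where CD5 averaged 40.7, CD28 25.8 and CD2 4.76 CPM. Of the B-lineage markers of J.gamma1 cells, MS4A1 was at 0 and PAX5 averaged under 0.1 CPM, but CD79A averaged 53.1 and the pre-B-cell gene IGLL1 565 CPM in sh-NC. The mouse sorts held other cells as well, since the summed level of 8 erythroid markers was 379 to 1440 CPM in control and 2970 to 4150 CPM in knockout libraries, that of 5 plasma-cell markers 411 to 1150 CPM and 1130 to 1500 CPM, and that of 8 B-cell markers 36.5 to 262 CPM and 40.2 to 111 CPM. In bulk RNA, fewer cells of a type and less RNA per cell cannot be told apart.

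The genes divided into 2 classes by the base composition of their promoters, read for 8 of the 10 in human, a feature that the choice of genes did not use. Windows from 250 bases before to 50 after the start of the representative transcript were read from hg38, and the CpG ratio is the number of CG dinucleotides divided by the number that the C and G content would give. The windows of RAG2 and DNTT are shown because they were almost free of CG, and those of XRCC6 and LIG4 because they are typical of the other end-joining genes. Each is written 5′ to 3′ on the gene's own strand, with CG dinucleotides in capitals.
RAG2 (hg38, chr11:36598187-36598486, minus strand): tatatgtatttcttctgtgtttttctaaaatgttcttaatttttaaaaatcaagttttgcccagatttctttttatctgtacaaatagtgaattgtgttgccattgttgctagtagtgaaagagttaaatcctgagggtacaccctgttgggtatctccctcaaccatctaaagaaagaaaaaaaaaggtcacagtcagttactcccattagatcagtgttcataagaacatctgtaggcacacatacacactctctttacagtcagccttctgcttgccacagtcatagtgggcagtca
DNTT (hg38, chr10:96304184-96304483, plus strand): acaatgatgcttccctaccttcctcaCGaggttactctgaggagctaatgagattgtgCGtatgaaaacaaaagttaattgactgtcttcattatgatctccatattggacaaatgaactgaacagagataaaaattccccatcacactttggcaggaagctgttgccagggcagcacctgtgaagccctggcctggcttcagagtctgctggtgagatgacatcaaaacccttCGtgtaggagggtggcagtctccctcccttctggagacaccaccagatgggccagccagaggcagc
XRCC6 (hg38, chr22:41621045-41621344, plus strand): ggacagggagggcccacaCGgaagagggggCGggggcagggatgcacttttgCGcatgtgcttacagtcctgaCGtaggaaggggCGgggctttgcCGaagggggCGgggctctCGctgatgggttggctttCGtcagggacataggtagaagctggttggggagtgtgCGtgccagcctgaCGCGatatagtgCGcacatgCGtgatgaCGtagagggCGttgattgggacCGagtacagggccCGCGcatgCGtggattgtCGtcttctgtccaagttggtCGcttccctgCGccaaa
LIG4 (hg38, chr13:108215487-108215786, minus strand): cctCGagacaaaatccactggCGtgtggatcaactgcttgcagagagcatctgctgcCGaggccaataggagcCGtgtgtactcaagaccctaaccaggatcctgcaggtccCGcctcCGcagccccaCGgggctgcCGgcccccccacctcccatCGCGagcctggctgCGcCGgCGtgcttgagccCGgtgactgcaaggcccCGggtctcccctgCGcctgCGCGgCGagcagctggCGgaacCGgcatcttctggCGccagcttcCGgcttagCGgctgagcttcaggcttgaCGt

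The RAG2 window held 0 CG and the DNTT window 3, against 23 in XRCC6 and 25 in LIG4. The CpG ratio was 0 for RAG2 and 0.164 for DNTT. In the other 6 windows read, those of NHEJ1, LIG4, DCLRE1C, XRCC4, XRCC6 and XRCC5, it ran from 0.654 to 1.14. Over the windows of 12303 tested coding genes the median ratio was 0.853, with quartiles of 0.719 and 0.961, and 9.04% lay under 0.4. Thus RAG2 and DNTT sat in the sparse CpG-poor group of promoters and the 6 general end-joining genes with the bulk of expressed genes. The RAG1 and PRKDC windows were not analysed here.

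**Figure D1:**
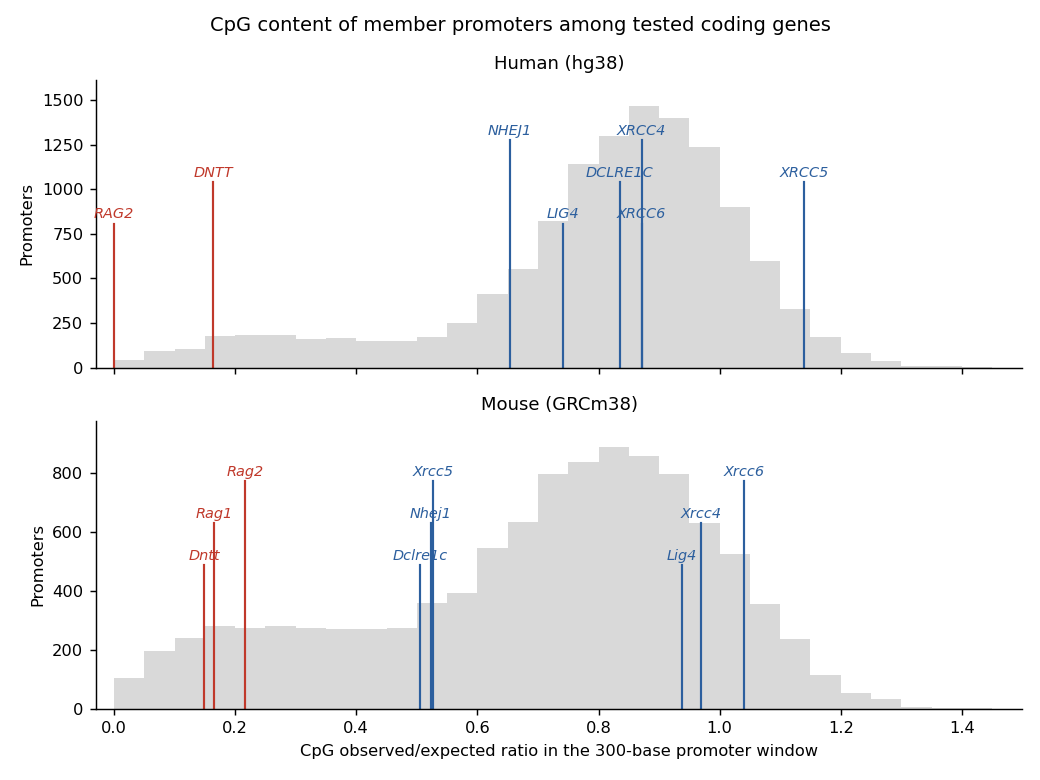
CpG observed/expected ratio of the 300-base promoter windows. Grey bars count the windows of tested coding genes (y axis, promoters) in bins of the ratio (x axis, no unit), red lines mark the RAG genes (human RAG1 not shown) and DNTT, and blue lines the other end-joining genes. The red lines lie between 0 and 0.216 in both species, and the blue lines at 0.505 or above.

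Rag1, Rag2 and Dntt also had the lowest ratios in mouse, in RefSeq promoter windows of build GRCm38.p6, where 9 of the 10 genes had an entry (Prkdc had none). The windows of Rag1 and Dntt, the lymphoid genes with counts in the mouse libraries, were as follows, again with CG in capitals.
Rag1 (GRCm38.p6, chr2:101649483-101649782, minus strand): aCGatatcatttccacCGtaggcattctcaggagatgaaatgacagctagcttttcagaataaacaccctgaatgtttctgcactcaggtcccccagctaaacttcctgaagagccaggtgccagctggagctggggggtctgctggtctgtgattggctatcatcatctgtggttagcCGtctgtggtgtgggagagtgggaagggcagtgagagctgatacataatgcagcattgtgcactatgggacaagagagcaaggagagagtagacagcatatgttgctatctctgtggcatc
Dntt (GRCm38.p6, chr19:41029025-41029324, plus strand): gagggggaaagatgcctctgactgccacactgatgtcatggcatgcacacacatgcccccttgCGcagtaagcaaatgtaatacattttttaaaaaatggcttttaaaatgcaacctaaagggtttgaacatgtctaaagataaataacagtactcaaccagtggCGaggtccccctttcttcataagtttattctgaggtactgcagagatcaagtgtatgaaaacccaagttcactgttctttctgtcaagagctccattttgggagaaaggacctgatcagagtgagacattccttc

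The ratio was 0.165 for Rag1, 0.216 for Rag2 and 0.149 for Dntt, and from 0.505 to 1.04 for the other 6. Over 10538 mouse windows the median ratio was 0.754, with quartiles of 0.525 and 0.907, and 18.3% lay under 0.4. Dclre1c (0.505) and Nhej1 (0.523) thus lay just under the lower quartile, and Xrcc5 (0.527) just above it. Short factor motifs were then counted on both strands. The RUNX motif TGTGGT occurred 2 times in the mouse Rag1 window, and in 8.96% of human and 13.2% of mouse windows. In human it occurred in neither the RAG2 nor the DNTT window, and 1 time in that of XRCC5. The E-box CANNTG, bound by E proteins, occurred 1 time in the RAG2 window and 3 times in that of DNTT, but 59.2% of human windows held at least 1. In mouse Rag1 an E-box and a RUNX motif shared bases. The GC box GGGCGG, present in 73.8% of human windows, was in neither of these, and was in those of XRCC4, XRCC5, XRCC6, DCLRE1C and NHEJ1 but not of LIG4. A match is a description of letters in a window, not a binding site.

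In J.gamma1 cells, knockdown of IRF2BP2 was accompanied by a fall of the 3 lymphoid-specific genes, while none of the 7 general end-joining genes passed the test in either direction. RAG1 was 6.58-fold, DNTT 4.13-fold and RAG2 4.03-fold lower in sh-IRF2BP2 than in sh-NC cells. A gene was called changed when the quasi-likelihood test of edgeR gave it a p, adjusted by Benjamini-Hochberg across the 15819 tested genes, under 0.05 and when its log2 fold change was at least 0.5 in size. By this rule 3 of 10 genes were called lower, where 5.01% of all genes tested were, and 0 of 10 were called higher, where 5.46% were. Before adjustment, XRCC6 was the only further gene of the 10 with a p under 0.05 in edgeR.

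RAG1, the catalytic subunit of the recombinase, lies on 11 at 36510372 to 36593156 on the plus strand. Its level was 60.9 and 30.2 CPM with sh-NC and 6.87 and 6.95 CPM with sh-IRF2BP2. The control libraries differed from each other by about as much as their lower value, but the groups were far from overlapping. The log2 fold change was -2.72 ± 0.31 (SE, n = 2 against 2), with a 95% confidence interval of -3.44 to -1.996 and an adjusted p of 0.00285 (edgeR). Its size was -2.13 when sh-NC replicate 1 was left out and -3.14 without sh-NC replicate 2.

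RAG2, the second subunit, which holds RAG1 on chromatin with the H3K4me3 mark, lies on the opposite strand at 36575574 to 36598279 of the same chromosome. It was at 18.3 and 15.6 CPM in sh-NC and at 4.46 and 3.94 CPM in sh-IRF2BP2 cells. The replicates of each group were close to each other and well apart from the other group. The log2 fold change was -2.01 ± 0.21 (SE, n = 2 against 2), with an interval of -2.49 to -1.53 and an adjusted p of 0.00205 (edgeR). RAG2 shares 588 exon bases with RAG1 on the opposite strand in the annotation, and whether the counting used strand is not stated, so reads from that stretch cannot be told apart. With the counts of both genes summed, the log2 fold change was -2.49 (adjusted p = 0.0019, edgeR).

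DNTT, which encodes terminal deoxynucleotidyl transferase, lies on 10 at 96304409 to 96338564 on the plus strand. Its levels were 25.5 and 43.9 CPM in sh-NC and 6.04 and 10.8 CPM in sh-IRF2BP2 cells. Both control libraries lay well above the higher knockdown library, and the replicates of each group differed by about the same factor. The log2 fold change was -2.04 ± 0.33 (SE, n = 2 against 2), with an interval of -2.81 to -1.28 and an adjusted p of 0.0094 (edgeR).

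**Figure D2:**
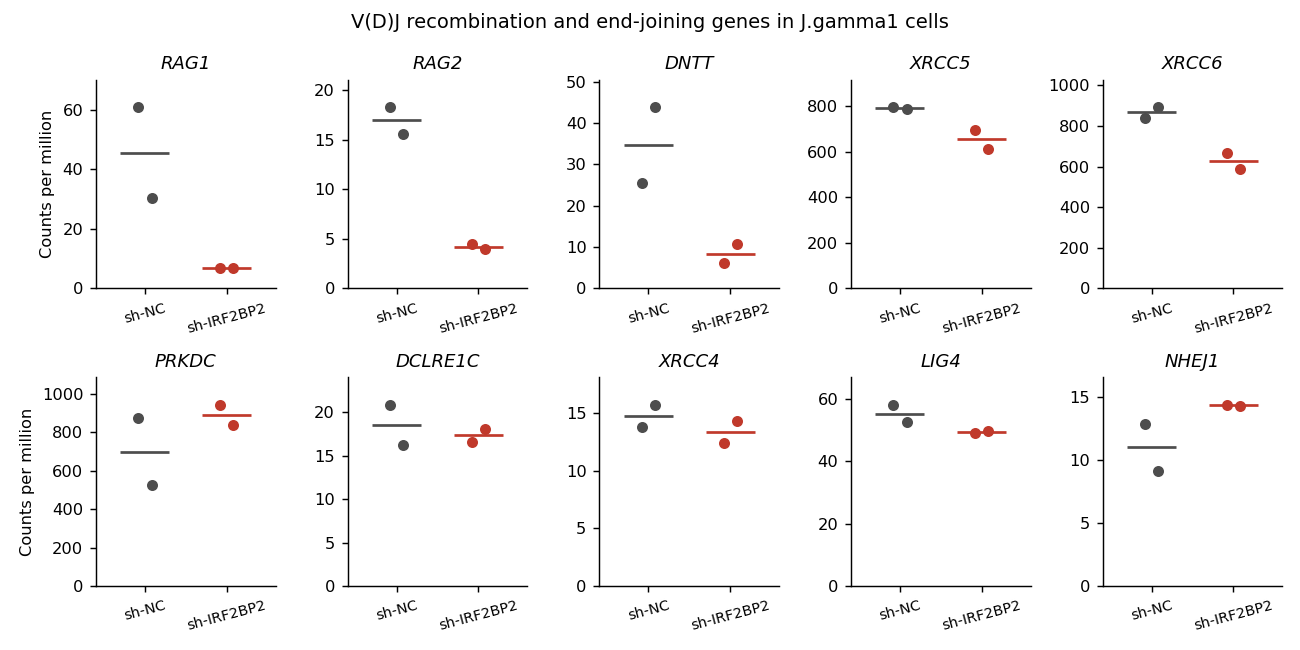
Level of each of the 10 genes in every J.gamma1 library, in CPM on a linear axis from 0. Points are libraries (2 per group), bars are group means, grey is sh-NC and red is sh-IRF2BP2; RAG1, RAG2 and DNTT drop to between 3.94 and 10.8 CPM, and the other 7 genes keep the order of magnitude of the controls.

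The Ku heterodimer, which binds DNA ends first, was the most abundant part of the machinery. XRCC6, the Ku70 gene, was at 840 and 894 CPM in sh-NC and at 667 and 590 CPM in sh-IRF2BP2 cells. The groups did not overlap, and the log2 fold change of -0.46 (interval -0.78 to -0.15) had an adjusted p of 0.0668 in edgeR. It passed the rule with upper-quartile scaling (-0.52, adjusted p = 0.042, edgeR) and without sh-NC replicate 1 (-0.51, adjusted p = 0.014, edgeR). DESeq2 gave an adjusted p of 0.0067 with a change of -0.47, under the fold threshold. XRCC5, the Ku80 gene, was at 796 and 789 CPM against 697 and 612 CPM. Its groups did not overlap either, and the log2 fold change of -0.28 had an interval of -0.59 to 0.033 (adjusted p = 0.227, edgeR).

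PRKDC, which encodes the catalytic subunit of the DNA-dependent protein kinase that Ku recruits, was at 873 and 525 CPM in sh-NC and at 945 and 839 CPM in sh-IRF2BP2 cells. The groups overlapped because sh-NC replicate 1 was within the knockdown range. The log2 fold change was 0.35 (interval -0.17 to 0.88, adjusted p = 0.359, edgeR), but without sh-NC replicate 1 it was 0.76 and passed the rule (adjusted p = 0.0013, edgeR). Transcript length moved with the libraries: among genes with a representative transcript over 8 kb, to which PRKDC belongs with 13459 bases, the median log2 fold change was 0.278, and sh-NC replicates 1 and 2 lay 0.169 above and below their mean (log2). Among genes of up to 2 kb the median log2 fold change was -0.158. With the length trend of each library removed, PRKDC had a log2 fold change of 0.0538 and RAG1, with 6588 bases, one of -2.85.

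DCLRE1C encodes Artemis, the nuclease that opens the hairpins left by RAG cutting, and stood at 20.9 and 16.2 CPM in sh-NC and at 16.6 and 18.1 CPM in sh-IRF2BP2 cells. The knockdown values lay inside the control range, and the log2 fold change of -0.097 had an interval of -0.52 to 0.32 (adjusted p = 0.777, edgeR). XRCC4, the scaffold of the ligase complex, was at 13.8 and 15.7 CPM against 12.4 and 14.3 CPM, a log2 fold change of -0.14 with an interval of -0.56 to 0.28 (adjusted p = 0.673, edgeR). LIG4, the ligase itself, was at 58.1 and 52.4 CPM against 48.9 and 49.7 CPM. Its groups did not overlap, but the difference of -0.16 on the log2 scale had an interval of -0.44 to 0.12 (adjusted p = 0.425, edgeR). NHEJ1, which encodes the XLF protein that bridges the ends with XRCC4, was at 12.9 and 9.12 CPM against 14.4 and 14.3 CPM. It was the only gene of the 10 that was higher in both knockdown libraries than in either control, with a log2 fold change of 0.39 (interval -0.11 to 0.88, adjusted p = 0.291, edgeR). Its representative transcript of 8020 bases also falls in the class over 8 kb.

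The intervals of the 3 called genes, whose highest bound was -1.28, did not meet those of the other 7, whose lowest bound was -0.78. These 7 intervals allow changes of up to 0.88 upwards and 0.78 downwards on the log2 scale. Without regard to the test, 6 of 10 genes were lower in both knockdown libraries than in both controls, where 28.7% of all genes tested were, and 1 of 10 was higher, where 29.6% were. The median log2 fold change was -0.22 over the 10 genes and 0.00667 over all genes tested.

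**Figure D3:**
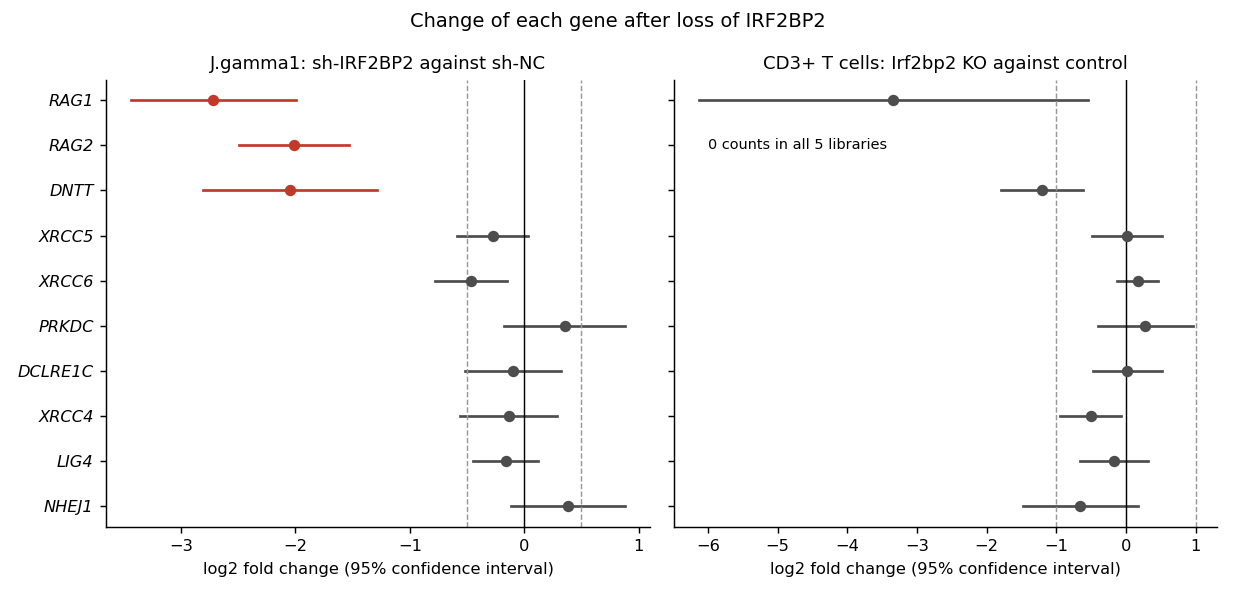
Log2 fold change (x axis) of each gene in J.gamma1 cells (left, sh-IRF2BP2 against sh-NC) and in mouse CD3+ T cells (right, Irf2bp2 KO against control). Points are edgeR estimates, bars are 95% confidence intervals, red marks genes called changed and dashed lines the fold threshold, 0.5 on the left and 1 on the right; the 3 called genes in J.gamma1 cells lie at -2.72 to -2.01 and no mouse gene was called.

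The order of the levels within J.gamma1 cells differed between the groups. Divided by the length of the representative transcript, the level in sh-NC cells was highest for XRCC6 with a mean of 409 CPM per kb (396 to 421), then XRCC5 with 235 and PRKDC with 51.9. DNTT followed with 17.9 CPM per kb (13.2 to 22.7), a range that met that of LIG4 (13.2 to 14.6). RAG2, with 7.1 CPM per kb, and RAG1, with 6.91, overlapped each other (6.55 to 7.65 and 4.58 to 9.24), so these 2 neighbours in the order did not differ beyond their spread. DCLRE1C with 3.11 and NHEJ1 with 1.38 closed the order. In sh-IRF2BP2 cells RAG1 was last with 1.05 CPM per kb, below RAG2 with 1.76, and DNTT had moved from the 4th to the 6th place with 4.35.

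Of the tested genes overlapping or beside RAG1, RAG2 and DNTT, 1, which overlaps RAG2, was called lower. That gene, IFTAP, passed the low-count filter only through the sh-NC libraries, so no other call was open to it. TRAF6, next to RAG1 on the side away from RAG2, was at 32.3 and 26.9 CPM in sh-NC and at 37 and 35.6 CPM in sh-IRF2BP2 cells (log2 fold change 0.29, adjusted p = 0.227, edgeR). IFTAP, which overlaps RAG2 by 372 exon bases on the opposite strand, had 27 and 18 counts in sh-NC and 0 in both knockdown libraries. Taken over each group against a floor of 3 counts, with the sh-NC counts read as exact, it was at least 15.4-fold lower. Its reads cannot be separated from those of RAG2 in the shared stretch if strand was not used. API5, the next tested coding gene on the far side, lies 6713684 bases from RAG2 and so is not a close neighbour. It had a log2 fold change of 0.44 (adjusted p = 0.0775, edgeR). An unnamed lncRNA (ENSG00000229418) that overlaps DNTT on the opposite strand without shared exon bases averaged 0.522 CPM in sh-NC and 0.137 CPM in sh-IRF2BP2 cells (log2 fold change -1.89, adjusted p = 0.132, edgeR). On either side of DNTT, ZNF518A was at 103 and 84.6 CPM in sh-NC and at 133 CPM in both sh-IRF2BP2 libraries (log2 fold change 0.50, adjusted p = 0.0501, edgeR), and TLL2 was below 2.2 CPM in every library.

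Several genes followed RAG1, RAG2 or DNTT across the 4 J.gamma1 libraries closely. Likeness was measured as the root mean square difference of log2 CPM, each gene centred on its own mean, among genes with a mean of at least 5 CPM. Among the nearest to RAG1 were CD1A, MME, PTBP3 and GCH1, with differences of 0.337 to 0.418. CD1A, a surface protein of cortical thymocytes, was at 54.7 and 52.5 CPM against 8.17 and 8.04 CPM. Nearest to RAG2 were DCLK3, ATP6V1C1, MRPS35, SLC40A1 and PTBP3 (0.0327 to 0.0931), and nearest to DNTT were ADGRG1, SMIM14, DAAM2, MAL and CEBPE (0.107 to 0.213). DNTT and its 5 neighbours were higher in sh-NC replicate 2 than in replicate 1, while RAG1 was higher in replicate 1. As 4 libraries in 2 groups carry little pattern beyond the group difference, the lists are descriptions.

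Among markers listed for other lymphoid stages, 3 genes of J.gamma1 cells were also called lower by 2 or more on the log2 scale. The marker lists were drawn up with earlier results of these data known, so their counts of calls describe the lists and are no test. IGLL1, a surrogate light chain gene, averaged 565 CPM in sh-NC and 87.8 CPM in sh-IRF2BP2 cells (log2 fold change -2.69, adjusted p = 7e-04, edgeR). CD79A fell by 2.07 and PTCRA, the pre-T-cell receptor alpha chain, fell by 2.51 on the log2 scale. PTCRA was low, with means of 1.955 CPM in sh-NC and 0.341 CPM in sh-IRF2BP2 cells, and passed the low-count filter through the sh-NC libraries. Of 6 pre-B-cell markers 5 were tested and 2 (IGLL1 and ERG) were called lower, with a summed level of 1110 to 1270 CPM in sh-NC and 811 to 875 CPM in sh-IRF2BP2 cells, and of 8 B-cell markers 3 were tested and CD79A was called lower (53.6 to 68.4 against 19.1 to 21.2 CPM). Of 8 double-positive thymocyte markers 7 were tested, and 2 (PTCRA and CD1D) were called lower and 0 higher. Of these 7, 4 had a negative and 3 a positive log2 fold change. Their list's summed level overlapped between the groups, at 49.6 to 73 CPM in sh-NC and 38.8 to 71.7 CPM in sh-IRF2BP2 cells. Of all genes tested, 5.01% were called lower and 5.46% higher. Of the 10 T-cell markers 1 was called lower (CD3D) and 2 higher (CD28 and TRAC), and their summed level was 1750 to 1960 CPM in sh-NC and 1690 to 1810 CPM in sh-IRF2BP2 cells. The part of these differences in the fall of RAG1, RAG2 and DNTT was not tested.

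Of 60 partner genes, chosen for known roles around the 10, all were tested in J.gamma1 cells, and 6 were called lower and 6 higher (5.01% and 5.46% of all genes tested). Their median log2 fold change was 0.0632. Among 10 further end-joining factors, 1 was called lower, POLM, which encodes the template-tolerant polymerase mu that fills gaps at coding joints (34.7 and 35.2 CPM in sh-NC, 22.3 and 26 CPM in sh-IRF2BP2; log2 fold change -0.54, adjusted p = 0.0488, edgeR). Among 8 RAG cofactors, 1 was called lower, HMGB1, the DNA-bending protein that helps RAG hold its signal sequences. It was at 1200 and 1150 CPM in sh-NC and at 732 and 697 CPM in sh-IRF2BP2 cells (log2 fold change -0.71, adjusted p = 0.0146, edgeR). Its paralog HMGB2 had a log2 fold change of -0.43 (adjusted p = 0.0997, edgeR).

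Among 14 genes of the break response, MAD2L2, the REV7 subunit of shieldin, was called lower (-0.59) and RNF168, a ubiquitin ligase at breaks, higher (0.54). ATM, the kinase that answers RAG breaks, had a log2 fold change of 0.16 (adjusted p = 0.53, edgeR). Among 10 genes of alternative end joining, PARP2 was called lower (-0.53) and 0 higher. Most calls came from 18 regulators of RAG or of early lymphocyte development, of which 2 were called lower and 5 higher. ERG, an ETS factor, had 88 and 96 counts in sh-NC and 21 and 40 counts in sh-IRF2BP2 libraries (log2 fold change -1.64, adjusted p = 0.0405, edgeR), and TCF12, which encodes the E protein HEB, fell by 0.61. FOXO1, an activator of RAG transcription in developing lymphocytes, rose from 12.2 and 10.9 CPM to 30.9 and 24.5 CPM (log2 fold change 1.26, adjusted p = 0.00577, edgeR). SATB1, RUNX1, TCF7 and FOXP1, all factors of early T-cell development, rose by 0.76, 0.66, 0.58 and 0.55. Of the calls among partners, that of FOXO1 held under all 15 alternatives run, and every other call was lost under at least 1 of them. Without either sh-IRF2BP2 library fewer partners were called, and so were fewer of all genes tested.

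**Figure D4:**
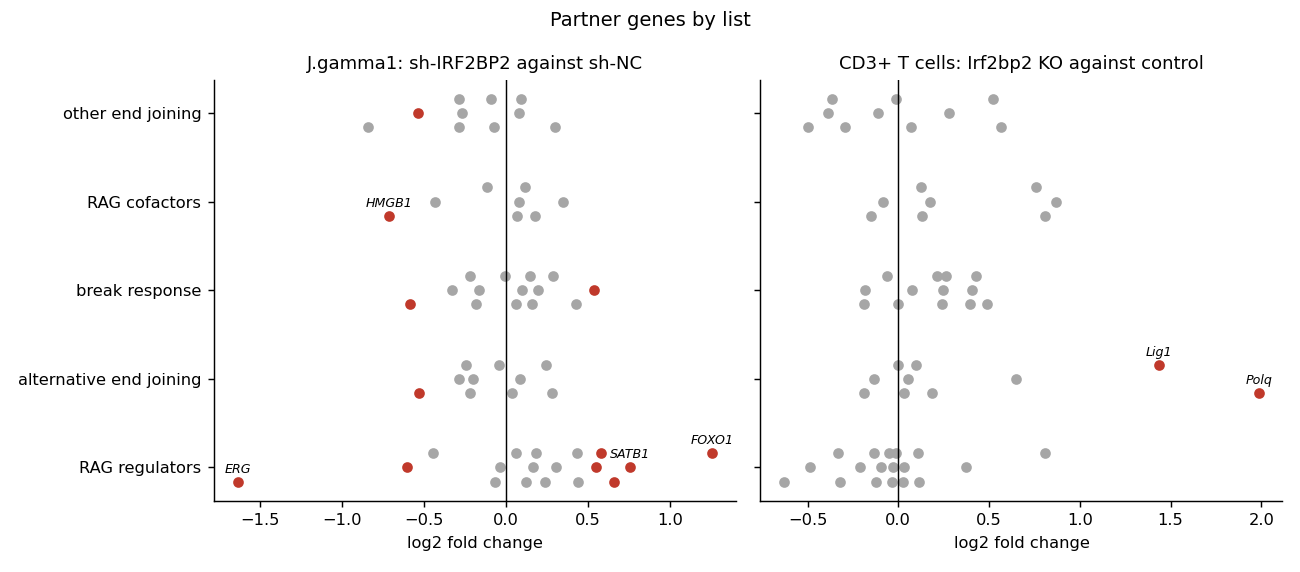
Log2 fold change (x axis) of the partner genes in 5 lists, in J.gamma1 cells (left) and mouse CD3+ T cells (right). Each point is a gene, offset vertically for legibility, and red points were called changed; red points lie on both sides of 0 in J.gamma1 cells, from ERG at -1.64 to FOXO1 at 1.26, and only Lig1 (1.43) and Polq (1.99) are red in mouse cells.

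In the mouse T cells the recombinase genes were at or near the floor, Dntt was low but measurable, and the end-joining genes were all present. A gene was called changed there when its adjusted p was under 0.05 (edgeR, 15350 genes tested) and its log2 fold change at least 1 in size. By this rule 0 of the 9 tested genes were called lower, where 0.111% of all genes tested were, and 0 were called higher, where 2.47% were. At an unadjusted p under 0.05 (edgeR) were Dntt and Xrcc4, both lower, and Rag1. Rag1 passed the low-count filter only through control libraries, so its lower direction carries no weight. The share of all genes tested at this level was not counted. DESeq2 called 1, Dntt.

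Dntt was at 10.3, 8.35 and 9.13 CPM in control and at 3.94 and 4.11 CPM in knockout cells. Replicates lay close together, and every knockout library was below every control. The level was 2.3-fold lower in knockout cells, with a log2 fold change of -1.20 ± 0.25 (SE, n = 2 against 3), an interval of -1.79 to -0.62 and an adjusted p of 0.0588 in edgeR, just outside the threshold. DESeq2 gave the same change with an adjusted p of 0.00016, and over 16 alternatives the change stayed between -1.26 and -1.11 with adjusted p from 0.00016 to 0.43. The 10 T-cell markers were summed at 3950 to 4760 CPM in control and at 3110 to 3310 CPM in knockout libraries, and 9 of them were lower without overlap (17.8% of all genes tested), 0 of them called, the median log2 fold change being -0.43. Genes also found in thymocytes and their recent descendants gave -0.97 for Ccr9 (adjusted p = 0.118, edgeR), -0.60 for Cd8a (0.0676) and -0.07 for Cd4 (0.872), while the thymocyte gene Ptcra averaged 0.0184 CPM in control and 0 in knockout cells. The part of these differences in that of Dntt was not tested.

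Rag1 had 7, 14 and 6 counts in the control and 0 and 2 counts in the knockout libraries. Summed over each group this is 27 against 2 counts, a ratio of 0.0895 after scaling to library size, with an exact 95% interval of 0.0103 to 0.356 that covers counting error only. In the fit the adjusted p was 0.231 (edgeR). Divided by length, the control mean of 0.048 CPM per kb lay far under that of Dntt (4.76). Rag2 had 0 counts in all 5 libraries, which allows up to 0.0336 CPM over the control and 0.0406 CPM over the knockout group, so no fold can be given. In B-lineage markers that could carry such traces, Igll1 was at 0 in all libraries and Vpreb1 averaged 0.469 CPM in control and 0.32 CPM in knockout cells.

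**Figure D5:**
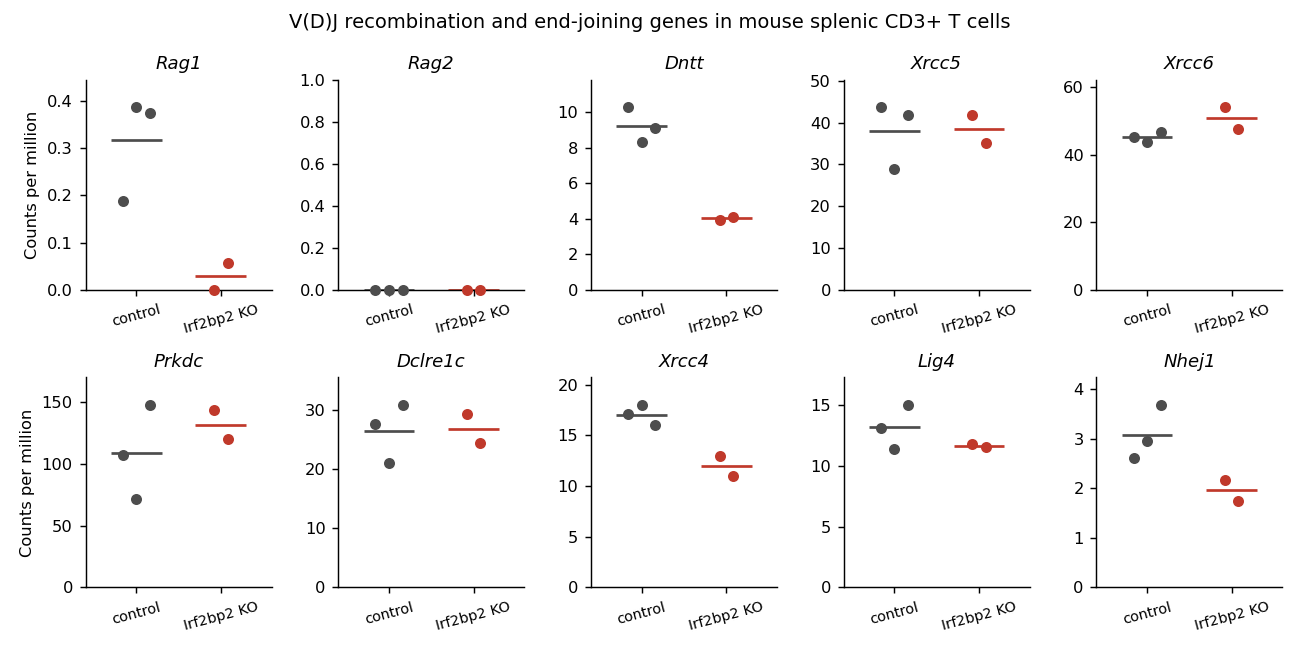
Level of each gene in every mouse CD3+ T-cell library, in CPM on a linear axis from 0. Points are libraries (3 control in grey, 2 Irf2bp2 KO in red) and bars are group means; Dntt lies at 8.35 to 10.3 in control and at 3.94 to 4.11 in knockout libraries, and Rag2 is at 0 throughout.

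Of the general end-joining genes of the mouse cells, Xrcc4 and Nhej1 were lower in knockout without overlap and Xrcc6 higher, none past the rule. Xrcc4 stood at 17.1, 18 and 16 CPM in control and at 13 and 11 CPM in knockout libraries (log2 fold change -0.50, interval -0.95 to -0.064, adjusted p = 0.247, edgeR). Nhej1 was at 2.62, 2.96 and 3.69 CPM against 2.17 and 1.75 CPM (-0.65, interval -1.47 to 0.17, adjusted p = 0.431, edgeR). Xrcc6 was at 45.3, 43.9 and 46.6 CPM against 54.1 and 47.7 CPM (0.17, interval -0.13 to 0.47, adjusted p = 0.583, edgeR). The overlapping 4 were Xrcc5, Lig4, Dclre1c and Prkdc. Xrcc5 was at 43.7, 28.8 and 41.7 CPM in control and at 41.9 and 35 CPM in knockout libraries, and Lig4 at 13.1, 11.4 and 15 CPM against 11.8 and 11.5 CPM. Dclre1c was at 27.5, 21 and 30.8 CPM against 29.3 and 24.3 CPM. Prkdc varied most, with 107, 72 and 148 CPM in control and 144 and 120 CPM in knockout cells (0.28, interval -0.41 to 0.96). Its spread followed transcript length: the median log2 deviation of genes over 8 kb from their control mean was -0.334 in control replicate 2 and 0.326 in control replicate 3, and with the length trend removed the change of Prkdc was 0.0118.

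Without regard to the test, 4 of 9 genes were lower in both knockout libraries than in every control, where 17.8% of all genes tested were, and 1 was higher, where 18.2% were. Rag1, 1 of the 4, passed the low-count filter only through control libraries. The median log2 fold change was -0.17 over the 9 and -0.0178 over all genes tested. The order of levels per length was flatter than in J.gamma1 cells, with Xrcc5 (14.9 CPM per kb in control), Xrcc6 (13.7) and Xrcc4 (11.1) leading, and Xrcc5 and Xrcc6 overlapping. Prkdc (8.63) overlapped Xrcc4, and from Dntt (4.76) over Dclre1c (3.74) and Nhej1 (2.93) to Lig4 (2.62) each gene overlapped the next, while Lig4 lay above Rag1. In knockout cells Dntt came after Dclre1c and Lig4, with 2.07 CPM per kb.

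Of 60 partner genes 59 were in the mouse table and tested, and 2 were called higher and 0 lower, a share near the 2.47% and 0.111% of all genes tested. Their median log2 fold change was 0.0302. The 2 genes were Polq and Lig1. Polq, the polymerase that anneals short homologies, was at 10.3, 5.81 and 6.51 CPM in control and at 27.3 and 32.6 CPM in knockout libraries (log2 fold change 1.99, adjusted p = 0.0195, edgeR). Lig1, the replicative ligase, was at 33.1, 35.6 and 27.3 CPM against 80.3 and 93.1 CPM (1.43, adjusted p = 0.01, edgeR). Cul4a, of the ubiquitin ligase that binds RAG1, had an adjusted p of 0.0251 (edgeR) but a log2 fold change of 0.76, under the threshold. Neither call held without control replicate 1 or without either knockout library, where the adjusted p of Polq was 0.056 to 0.18 and that of Lig1 0.065 to 0.11. Of 8 erythroid markers, which moved with these calls, 5 were called higher and 8 of 8 were higher without overlap, with a median log2 fold change of 2.64. Their part in the differences of Polq and Lig1 was not tested. Of the 18 regulators of RAG or of early lymphocyte development, 0 were called in mouse cells. Among them 12 had a negative and 6 a positive log2 fold change, with a median of -0.0426. Tcf7, Satb1 and Lef1 had log2 fold changes of -0.33, -0.49 and -0.63, with adjusted p of 0.319, 0.123 and 0.0513 (edgeR). On the other side, Myb had 0.37 (adjusted p = 0.354, edgeR) and Erg 0.81 (adjusted p = 0.439, edgeR).

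Set side by side, DNTT had a log2 fold change of -2.04 in J.gamma1 cells and Dntt one of -1.20 in mouse T cells, and the 7 general end-joining genes ran from -0.46 to 0.39 in the first and from -0.65 to 0.28 in the second. Whether the changes differ between the systems was not tested, and species, cell stage and knockdown against knockout cannot be told apart in that comparison.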

How the data were processed

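RNA was extracted with TRIzol and made into libraries with the TruSeq RNA kit. Per the labels and the methods, the authors aligned reads with HISAT2 2.2.0 to hg38 or mm10 and used StringTie, and the deposited values are whole-number counts per gene, with no normalization. How StringTie output became counts, and whether strand was used, is not stated. Rows were matched by gene ID to GENCODE v44 and vM21, which gave symbols, positions and the length of a representative transcript (56105 of 64252 human and 42462 of 43432 mouse rows); no other rows entered the main tests.

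Each table was fitted separately with edgeR 4.0.16 (R 4.3.3; filterByExpr, TMM scaling, quasi-likelihood test, Benjamini-Hochberg adjustment over all genes tested). Intervals use the t distribution of that test. The biological coefficient of variation was 0.165 in J.gamma1 and 0.271 in mouse cells, with 2 and 3 residual degrees of freedom. Replicates differed by more than sampling noise (chi-square per gene of at least 18.2 and 29.7). Scripts were tested on simulated data. The alternatives tried were upper-quartile and RLE scaling, DESeq2 1.42.0, both filters on low counts, halved counts, all rows, other fold thresholds, a replicate block, leaving out each library, summing RAG1 and RAG2 and, chosen after seeing the data, removing a length trend.

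Named were the 10 genes in both tables, the list genes called changed (up to 8 per list, and those showing a range), the genes overlapping or next to RAG1, RAG2 and DNTT, the 5 genes most like each of these in J.gamma1 cells, and IRF2BP2. Some genes and a promoter window are not reported here. The 10 genes and the lists were chosen with earlier results of these data known. Human promoters came from hg38 and mouse ones from the first RefSeq start listed.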

Additional observations from a re-analysis of the deposited data

Results flagged for a closer look

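Among 24 genes looked at, the 10 and the partner genes called in either system, 6 lay on opposite sides in the 2 systems, with every treated library above or below every control in each. Of 9900 genes tested in both systems and matched by symbol, 10.9% did so. The partner genes among the 24 entered through a call, which favours groups without overlap, so these shares cannot be compared. For none was the difference between the systems tested. NHEJ1 had a log2 fold change of 0.385 in J.gamma1 cells and Nhej1 one of -0.652 in mouse T cells. XRCC6 had -0.465 and Xrcc6 0.17. Of the partner genes, ERG had -1.64 and Erg 0.806, LIG1 had -0.29 and Lig1 1.43, SATB1 had 0.758 and Satb1 -0.489, and TCF7 had 0.578 and Tcf7 -0.334. Within a group of 2 or 3 libraries no search for an outlying library was made.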

How the results depend on the processing

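The calls of RAG1, RAG2 and DNTT in J.gamma1 cells held under every alternative run, with log2 fold changes of -3.14 to -2.13, -2.13 to -1.90 and -2.53 to -1.60. Of the 10 genes, 3 to 4 were called lower in J.gamma1 cells, the further gene being XRCC6 with upper-quartile scaling or without sh-NC replicate 1, and 0 to 1 were called higher with a library left out, PRKDC without sh-NC replicate 1. In mouse T cells 1 of the 10 was called lower with DESeq2, and 0 to 1 with a library left out, in each case Dntt. Where a library is left out and 1 remains in its group, that library is assumed to vary like the other group. Partner genes called in J.gamma1 cells were 1 lower and 1 higher with at least 1 count in any library, 1 and 1 at a fold threshold of 1, and 0 to 7 lower and 1 to 7 higher with a library left out. Partner genes called higher in mouse cells were 0 to 3 with a library left out.

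With a library left out, log2 fold changes near 0 turned their sign: DCLRE1C ranged from -0.273 to 0.0953 (above 0 without sh-NC replicate 1), Xrcc5 from -0.14 to 0.14 (below 0 at -0.134 without control replicate 2 and at -0.14 without Irf2bp2 KO replicate 1), and Dclre1c from -0.139 to 0.139 (below 0 at -0.102 and -0.139 in the same settings). Dclre1c was also at -0.143 with the length trend removed. The cause was not tested. The labels do not say whether replicates of the same number share a batch. The differences between replicates 1 and 2 correlated across genes at 0.333 between the J.gamma1 groups and at 0.064 between the mouse groups. With the replicate block, 1174 genes were called lower and 1293 higher in J.gamma1 cells against 793 and 864 without it. RAG1 changed there by -2.64 and XRCC6 by -0.467 (adjusted p = 0.017, edgeR). In mouse cells the block used only replicate numbers found in both groups, so control replicate 3 was left out. Dntt changed by -1.21 in that fit (adjusted p = 0.1, edgeR), where the block and the missing library cannot be told apart. The calls for the 10 genes stayed the same in both systems. Over all mouse genes, 379 were called higher and 17 lower, against 735 and 66 with DESeq2 and 6 and 1 without control replicate 1; in J.gamma1 cells 864 and 793 became 319 and 396 with at least 1 count in any library, and upper-quartile scaling turned the split to 722 and 946. In control replicate 3, with 16668577 counts, a count of 0 allows up to 0.188 CPM, against 0.0783 to 0.0845 CPM in the other mouse libraries.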

Other observations

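Some of the end-joining genes share their start or part of their exons with a gene of another function. In J.gamma1 cells TMEM167A, which overlaps XRCC4 on the opposite strand without sharing exon bases, averaged 66.9 CPM in sh-NC and 97.6 CPM in sh-IRF2BP2 cells (log2 fold change 0.545, adjusted p = 0.0361, edgeR), whereas XRCC4 itself had -0.138 (adjusted p = 0.673, edgeR). The gene of the histone methyltransferase SUV39H2 overlaps DCLRE1C by 159 exon bases, and both had small changes, 0.102 and -0.097. In mouse cells Suv39h2 averaged 2.84 CPM in control and 6.71 CPM in knockout cells (1.23, adjusted p = 0.0826, edgeR) and Dclre1c, at 26.4 and 26.8 CPM, had 0.0222. Whether the members of a pair differ was not tested.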
